A study of Mus musculus with 21 samples.

Results

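6 genes known from osteoclasts, the bone-resorbing giant cells, were followed in the fat of mice: Tm4sf19, Atp6v0d2, Ctsk, Dcstamp, Ocstamp and Nfatc1. They were taken by gene symbol from the platform annotation, each through its brightest probe with a single symbol. Each had such a probe, so these are 6 of the 16248 genes measured. They were proposed with earlier results of these data in view, among them the differences between high-fat and normal diet, and comparisons that involve those 2 diets are therefore given for them as descriptions without a test.

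RNA came from the epididymal fat pad of male C57BL/6J mice, which arrived at 4 weeks of age, were acclimated for 1 week and ate their diets for 12 weeks. Each of 7 groups had 3 GeneChip whole-transcript arrays, 21 in all. H_FMG mice ate the high-fat diet with 0.9% by weight of fermented mixed grain, and L_FMG mice the same diet with 0.3%. SMG mice ate it with 0.3% steamed grain, and BC mice with 0.3% Bacillus coagulans, a spore-forming bacterium. RMG is a code for a further group labelled with the high-fat diet, and its supplement is not described in the labels used here. HFD mice ate the high-fat diet alone, with 40% of energy from fat, and ND mice a normal diet with 10%. For SMG, BC, HFD and ND 10 mice are stated per group, and no label says how 3 were selected. Arrays carry the group name and the number from the title, and are treated as separate animals, which the labels do not state outright, so p-values measure only the spread between these arrays.

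Osteoclasts form when cells of the macrophage lineage fuse under the cytokines M-CSF and RANKL. RANKL acts through its receptor RANK, and the transcription factor NFATc1 then turns on genes of fusion and resorption. DC-STAMP and OC-STAMP are membrane proteins needed for fusion, the d2 subunit of the proton pump V-ATPase, encoded by Atp6v0d2, serves fusion and acid secretion, and cathepsin K, encoded by Ctsk, degrades collagen in the acid. In the fat of obese mice, macrophages that take up lipid from dying adipocytes expand their lysosomes and can fuse into giant cells, and several of these genes are known in them. Tm4sf19 encodes a 4-span membrane protein of the L6 family that has been described in multinucleating macrophages and osteoclasts.

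Promoter sequences are shown for Tm4sf19 and Ctsk, and levels played no part in choosing them. They are from RefSeq on GRCm38.p6, both on the plus strand, and run from 250 bases before an annotated start to 30 after it. The windows are chr16:32400256-32400535 for Tm4sf19 and chr3:95498960-95499239 for Ctsk. The annotated Tm4sf19 gene begins at 32400012, before its window, so the start used here lies inside that gene. Of the 6 genes 2 matched the promoter table. Capitals mark matches to 3 motifs searched on both strands. The first was GGAAA, the core bound by NFAT factors, read as TTTCC on the other strand. The others were TGANTCA, the AP-1 motif, and CANNTG, the general E-box pattern.
Tm4sf19: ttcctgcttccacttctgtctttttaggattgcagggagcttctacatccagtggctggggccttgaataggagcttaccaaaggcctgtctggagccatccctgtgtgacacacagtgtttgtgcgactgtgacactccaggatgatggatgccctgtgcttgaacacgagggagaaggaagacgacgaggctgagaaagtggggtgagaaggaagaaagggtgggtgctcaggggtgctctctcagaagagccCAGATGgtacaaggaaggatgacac
Ctsk: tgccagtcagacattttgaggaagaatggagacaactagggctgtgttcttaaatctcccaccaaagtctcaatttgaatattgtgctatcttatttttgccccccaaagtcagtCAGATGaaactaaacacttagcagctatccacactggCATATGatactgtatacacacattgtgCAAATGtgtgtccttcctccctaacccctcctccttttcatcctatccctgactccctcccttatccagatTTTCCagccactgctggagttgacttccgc
The Tm4sf19 window held 0 GGAAA, 0 TGANTCA and 1 CANNTG, the last starting 5 bases after the start site. The Ctsk window held 1 GGAAA, as TTTCC at the start site itself, 0 TGANTCA and 3 CANNTG, which began at positions -135, -98 and -71. GGAAA was found in 59.2% of 32851 mouse promoters cut to the same window, TGANTCA in 7.46% and CANNTG in 70.1%. No match overlapped another, and these letters describe the windows without showing that a factor binds there.

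Values are log2 levels as deposited, and a level of 1 probe is not compared with that of another. Array medians ran from 4.23 to 4.39, no pair of arrays was identical, and all 6 probes passed the filter on dim genes, set at the median of all probes, 4.30. In Tm4sf19, Atp6v0d2, Ctsk and the macrophage markers, array ND 9 lay above the other ND arrays, and SMG 12 and H_FMG 8 lay below the rest of their groups. In Dcstamp this held for ND 9 and SMG 12 and not for H_FMG 8. The arrays of each group lay close together in Ocstamp and Nfatc1. The mean of 15 measured macrophage markers, each centred on its mean over the 21 arrays, was -0.35 in ND 9 and -0.77 and -0.79 in the other ND arrays. It was -0.21 in SMG 12, against 0.54 and 0.41 in the other SMG arrays.

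Of the 6 genes 4 were much higher in fat after high-fat feeding, and 2 were not. Tm4sf19 was higher in HFD than in ND by 2.74 ± 0.44 log2 units (difference ± SE, n = 3 each), Atp6v0d2 by 2.43 ± 0.42, Ctsk by 2.01 ± 0.37 and Dcstamp by 1.17 ± 0.23. Ocstamp differed by 0.09 ± 0.10 and Nfatc1 by 0.10 ± 0.10. The label "osteoclast-like" thus covers 2 kinds of behaviour here: the fusion gene Ocstamp and the regulator Nfatc1 did not share the diet difference of the other 4. Each gene was read by 1 probe, and whether the probes of Ocstamp and Nfatc1 respond to their transcripts was not tested. In whole tissue, a larger number of macrophages and more RNA per macrophage cannot be told apart, and bulk arrays cannot place these genes in macrophages.

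**Figure D1:**
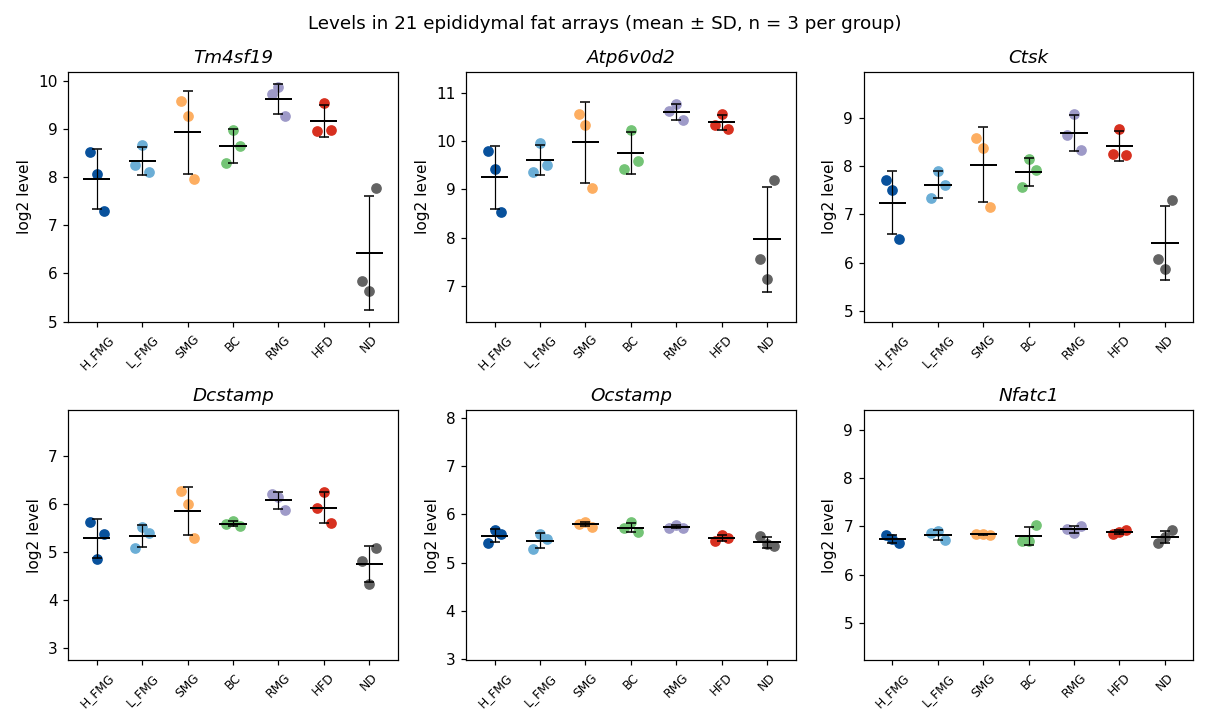
Log2 level of each gene (vertical axis) in the 7 groups (horizontal axis), 1 point per array, with the group mean and SD (n = 3); the vertical axes of all panels span the same number of log2 units. Tm4sf19, Atp6v0d2, Ctsk and Dcstamp lie higher in HFD than in ND, with Tm4sf19 at 9.16 and 6.42 on average, while Ocstamp (5.51 and 5.42) and Nfatc1 (6.89 and 6.79) stay nearly level.

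Nfatc1, the master transcription factor of osteoclast formation, kept nearly the same level in all groups. Nfatc1 stood at 6.82, 6.75 and 6.66 in the 3 H_FMG arrays, 6.86, 6.90 and 6.71 in L_FMG and 6.84, 6.84 and 6.82 in SMG. It stood at 6.69, 6.70 and 7.02 in BC and 6.95, 6.86 and 7.01 in RMG, against 6.85, 6.89 and 6.93 in HFD and 6.66, 6.79 and 6.92 in ND. The 21 values lay between 6.66 and 7.02, and the HFD and ND arrays overlapped. The group means ran from 6.74 ± 0.08 in H_FMG (SD, n = 3) to 6.94 ± 0.07 in RMG. After quantile normalization the HFD minus ND difference was -0.07, so its direction depended on the scaling.

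Ocstamp, the second fusion gene, varied little and overlapped between the diets. Ocstamp stood at 5.41, 5.68 and 5.59 in the 3 H_FMG arrays, 5.28, 5.59 and 5.50 in L_FMG and 5.80, 5.85 and 5.75 in SMG. It stood at 5.72, 5.83 and 5.63 in BC and 5.72, 5.78 and 5.72 in RMG, against 5.46, 5.57 and 5.51 in HFD and 5.54, 5.38 and 5.34 in ND. Its highest levels were in SMG, RMG and BC, and each of these 3 groups lay wholly above HFD. Against HFD the differences were 0.29 ± 0.10 in SMG, 0.21 ± 0.10 in BC and 0.23 ± 0.10 in RMG, and the background share of genes with all 3 arrays above HFD was 4.75% in SMG, 7.11% in BC and 6.35% in RMG.

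Dcstamp, whose product is required for the fusion of osteoclast precursors, followed the diet. Dcstamp stood at 5.62, 4.84 and 5.38 in the 3 H_FMG arrays, 5.09, 5.52 and 5.40 in L_FMG and 6.26, 6.00 and 5.29 in SMG. It stood at 5.59, 5.65 and 5.53 in BC and 6.20, 6.14 and 5.87 in RMG, against 5.91, 6.25 and 5.60 in HFD and 4.82, 4.34 and 5.08 in ND. Every HFD array lay above every ND array. The HFD mean of 5.92 ± 0.32 compared with 4.75 ± 0.38 in ND (SD, n = 3 each), a 2.25-fold difference. Both fermented grain groups lay between these means, at 5.28 ± 0.40 in H_FMG and 5.33 ± 0.22 in L_FMG. All L_FMG arrays were below all HFD arrays, whereas H_FMG overlapped HFD through a single array, H_FMG 3.

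Atp6v0d2, the pump subunit enriched in osteoclasts, showed a larger diet difference. Atp6v0d2 stood at 9.79, 9.43 and 8.52 in the 3 H_FMG arrays, 9.36, 9.96 and 9.51 in L_FMG and 10.57, 10.33 and 9.02 in SMG. It stood at 9.42, 10.24 and 9.60 in BC and 10.62, 10.77 and 10.44 in RMG, against 10.34, 10.57 and 10.26 in HFD and 7.55, 7.15 and 9.20 in ND. The HFD mean was 10.39 ± 0.16 and the ND mean 7.97 ± 1.09, a 5.37-fold difference with no overlap. ND 9 stood well above the other ND arrays, and without it the difference was 3.04.

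Ctsk, the collagen-degrading protease, had the same profile. Ctsk stood at 7.72, 7.51 and 6.49 in the 3 H_FMG arrays, 7.33, 7.90 and 7.62 in L_FMG and 8.58, 8.38 and 7.15 in SMG. It stood at 7.58, 8.15 and 7.93 in BC and 8.66, 9.09 and 8.34 in RMG, against 8.25, 8.78 and 8.23 in HFD and 6.08, 5.86 and 7.29 in ND. Its mean was 8.42 ± 0.31 in HFD and 6.41 ± 0.77 in ND, a 4.02-fold difference, and the groups did not overlap. Without ND 9 the difference was 2.45.

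Tm4sf19 had the largest diet difference of the 6. Tm4sf19 stood at 8.53, 8.07 and 7.30 in the 3 H_FMG arrays, 8.25, 8.66 and 8.11 in L_FMG and 9.58, 9.28 and 7.96 in SMG. It stood at 8.29, 8.99 and 8.66 in BC and 9.73, 9.88 and 9.28 in RMG, against 8.95, 9.55 and 8.99 in HFD and 5.84, 5.64 and 7.79 in ND. Its HFD mean was 9.16 ± 0.33 and its ND mean 6.42 ± 1.19, a 6.68-fold difference, and every HFD array lay above every ND array. Without ND 9 the difference was 3.42. In all, 4 of the 6 genes had their HFD arrays wholly above the ND arrays, a pattern seen in 15.7% of all genes. The reverse was seen in 13% of all genes and in 0 of the 6. Since this contrast was known when the genes were proposed, nothing is read from that count.

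For the 4 genes that followed the diet, the supplemented groups lay between HFD and ND in mean, except for RMG. The place of SMG rested on array SMG 12. The SMG minus HFD difference was -0.23 ± 0.44 for Tm4sf19, -0.41 ± 0.42 for Atp6v0d2, -0.38 ± 0.37 for Ctsk and -0.07 ± 0.23 for Dcstamp, and without SMG 12 it was 0.26, 0.06, 0.06 and 0.21 in the same order of genes, so that SMG then lay above HFD. With all arrays, the group means of these 4 genes took the same order, RMG, HFD, SMG, BC, L_FMG, H_FMG and ND from high to low, and the mean of the macrophage markers took that order too. Neighbouring groups in this order overlapped for Tm4sf19, Atp6v0d2 and Ctsk throughout, and for Dcstamp all but BC and L_FMG did, so the order is not resolved step by step. Ocstamp had the order SMG, RMG, BC, H_FMG, HFD, L_FMG and ND, with every pair of neighbours overlapping. For Nfatc1 it was RMG, HFD, SMG, L_FMG, BC, ND and H_FMG, where only HFD and SMG did not overlap.

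At the higher dose of fermented grain, the 3 genes with the largest diet differences lay wholly below HFD. The H_FMG minus HFD difference was -1.19 ± 0.44 log2 units for Tm4sf19, -1.14 ± 0.42 for Atp6v0d2 and -1.18 ± 0.37 for Ctsk. Nfatc1 was also wholly below HFD, at -0.15 ± 0.10, while Dcstamp (-0.64 ± 0.23) and Ocstamp (0.05 ± 0.10) overlapped. This made 4 of 6 genes, against 11.4% of all genes. Without H_FMG 8, whose macrophage markers were the lowest of that group at -0.77, the differences were -0.86 for Tm4sf19, -0.78 for Atp6v0d2 and -0.80 for Ctsk. Without H_FMG 3 they were -1.48, -1.41 and -1.42.

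At the lower dose, L_FMG against HFD, the differences were -0.82 ± 0.44 for Tm4sf19, -0.78 ± 0.42 for Atp6v0d2, -0.80 ± 0.37 for Ctsk and -0.59 ± 0.23 for Dcstamp. All 4 had no overlap with HFD, against 10.1% of all genes below HFD in this comparison, and Ocstamp (-0.06) and Nfatc1 (-0.07) overlapped. With Bacillus coagulans, Atp6v0d2 (-0.64 ± 0.42) and Ctsk (-0.53 ± 0.37) lay wholly below HFD, against 7.35% of all genes, while Tm4sf19 (-0.52 ± 0.44) overlapped HFD. In SMG only Nfatc1 lay wholly below HFD, by a difference of -0.06, against 3.51% of all genes. In RMG Tm4sf19 was at 0.47 ± 0.44, Atp6v0d2 at 0.22 ± 0.42 and Ctsk at 0.28 ± 0.37 relative to HFD, and all 3 overlapped. Ocstamp was the 1 gene of 6 wholly above HFD in RMG, against 6.35% of all genes above and 4.65% below. These 5 comparisons share the same HFD arrays.

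Set against ND, 5 of 6 genes were wholly higher in RMG and 5 in BC, all but Nfatc1, against 17.1% and 9.15% of all genes. In L_FMG 4 were wholly higher, Tm4sf19, Atp6v0d2, Ctsk and Dcstamp, against 6.73%. In SMG 3 were, Tm4sf19, Dcstamp and Ocstamp, against 11.2%, and SMG 12 gave the overlap of Atp6v0d2 and Ctsk with ND 9. In H_FMG 0 of 6 were wholly higher than ND, where the share of all genes was 4.79%. The H_FMG minus ND differences were 1.55 ± 0.44 for Tm4sf19, 1.28 ± 0.42 for Atp6v0d2 and 0.83 ± 0.37 for Ctsk. For these 3 genes the overlap was between ND 9 and H_FMG 8 alone. Without ND 9 the differences were 2.23, 1.90 and 1.27, and without H_FMG 8 they were 1.88, 1.64 and 1.20. Without H_FMG 3 they were 1.27, 1.01 and 0.59. These comparisons share the ND arrays.

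Comparisons among the supplemented groups, with no HFD or ND array on either side, could be tested for the 6 genes. The spread was estimated over all 21 arrays, so the HFD and ND arrays still entered the SE and the p-values. A moderated F test in limma asked whether a gene differed anywhere among H_FMG, L_FMG, SMG, BC and RMG, and 50 of 16248 genes passed after Benjamini-Hochberg adjustment, which is 0.308%. Of the 6 genes 0 passed. The adjusted p was 0.201 for Ctsk, 0.201 for Dcstamp, 0.217 for Ocstamp, 0.220 for Tm4sf19, 0.389 for Atp6v0d2 and 0.835 for Nfatc1. Unadjusted p-values from the same limma fit were 0.0120 for Ctsk, 0.0120 for Dcstamp, 0.0139 for Ocstamp, 0.0148 for Tm4sf19, 0.05 for Atp6v0d2 and 0.389 for Nfatc1. Array SMG 12 weighed on this: without it the limma adjusted p was 0.0381 for Ctsk and 0.0310 for Dcstamp, which passed, and 0.0515 for Tm4sf19. With arrays weighted by their estimated quality the limma adjusted p was 0.00783 for Tm4sf19, 0.0303 for Atp6v0d2, 0.0157 for Ctsk and 0.0128 for Dcstamp, in a setting that called 1672 genes in all. The count of 50 itself moved to 775 without SMG 12 and to 0 without any 1 of RMG 4, RMG 10, SMG 8, L_FMG 10 or H_FMG 8, to 1 without RMG 9, 4 without BC 11, 8 without H_FMG 6, 21 without L_FMG 8, 28 without L_FMG 4, 79 without SMG 5 and 202 without H_FMG 3.

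The dose of fermented grain was compared directly in H_FMG against L_FMG, and no member differed detectably. The difference was -0.37 ± 0.44 for Tm4sf19, with a 95% interval from -1.30 to 0.55, -0.36 ± 0.42 for Atp6v0d2 (-1.24 to 0.52) and -0.38 ± 0.37 for Ctsk (-1.15 to 0.40). Dcstamp differed by -0.05 ± 0.23 (-0.54 to 0.43), Ocstamp by 0.10 ± 0.10 (-0.11 to 0.31) and Nfatc1 by -0.08 ± 0.10 (-0.28 to 0.12). The limma adjusted p was 0.998 for all 6, and the arrays overlapped for all 6, where 4.79% of all genes lay wholly above and 3.28% wholly below. Array H_FMG 8 carried much of these differences: without it they were -0.04 for Tm4sf19, 0.0004 for Atp6v0d2 and -0.0048 for Ctsk, and without H_FMG 3 they were -0.65, -0.63 and -0.62. The intervals of Tm4sf19, Atp6v0d2 and Ctsk leave room for a fall of more than 1 log2 unit at the higher dose.

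Fermented and steamed grain at the same dose were compared in L_FMG against SMG. Dcstamp differed by -0.52 ± 0.23 and Ocstamp by -0.35 ± 0.10, each with a limma adjusted p of 0.844, and Ocstamp was the 1 of 6 genes whose L_FMG arrays lay wholly below SMG, against 4.94% of all genes below and 4.25% above. Tm4sf19 differed by -0.59 ± 0.44, Ctsk by -0.42 ± 0.37, Atp6v0d2 by -0.37 ± 0.42 and Nfatc1 by -0.01 ± 0.10. None passed, and limma adjusted p-values lay between 0.844 and 0.989. Without SMG 12 the differences were -1.08 for Tm4sf19, -0.86 for Ctsk, -0.84 for Atp6v0d2 and -0.80 for Dcstamp (limma adjusted p = 0.332, 0.343, 0.453 and 0.176). Without SMG 5 they were -0.27, -0.14, -0.07 and -0.31, and none passed in either case.

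Fermented grain and the bacterium at the same dose were compared in L_FMG against BC. Dcstamp differed by -0.25 ± 0.23 and Ocstamp by -0.27 ± 0.10, both without overlap, which made 2 of 6 genes against 4.49% of all genes. Tm4sf19 (-0.30 ± 0.44), Ctsk (-0.27 ± 0.37), Atp6v0d2 (-0.14 ± 0.42) and Nfatc1 (0.02 ± 0.10) overlapped. The limma adjusted p was 0.999 for all 6. In these 3 pairs limma called 0 genes of 16248, and an unadjusted p below 0.05 was reached by 636 genes in H_FMG against L_FMG, 886 in L_FMG against SMG and 666 in L_FMG against BC.

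**Figure D2:**
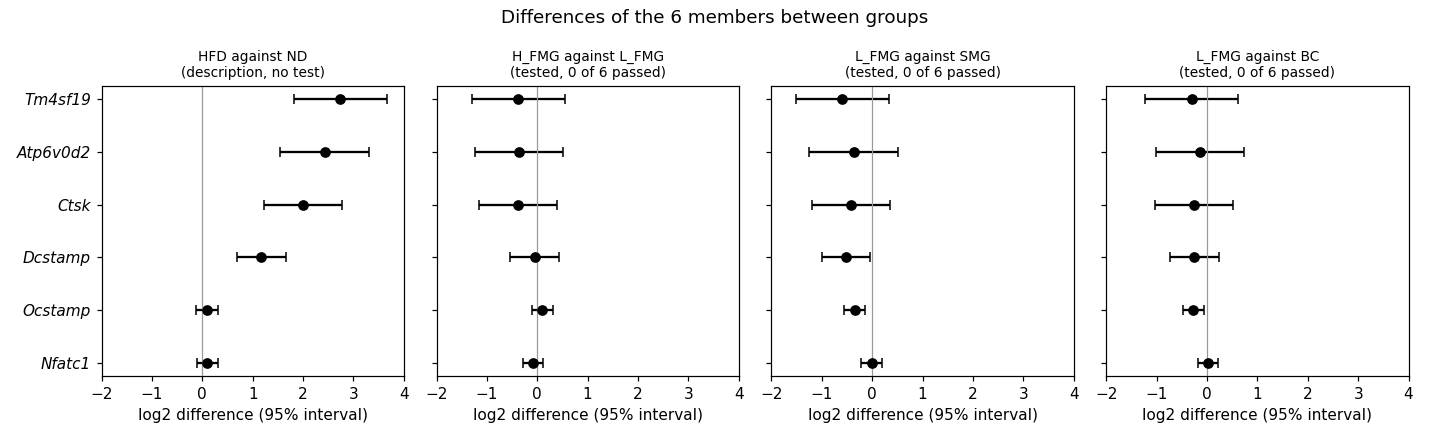
Difference in log2 level (horizontal axis) for each gene with its 95% interval, for HFD minus ND at the left, given without a test, and for the 3 tested pairs of supplemented groups. In HFD minus ND, Tm4sf19, Atp6v0d2, Ctsk and Dcstamp lie at 2.74, 2.43, 2.01 and 1.17. That contrast was known when the genes were proposed, so its intervals are not read as a test. In the tested pairs 0 of the 6 genes passed.

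RMG, whose supplement is unknown here, had the highest mean for 5 of the 6 genes, all but Ocstamp, and the pairs with it are described without a test. All 6 genes had their H_FMG arrays wholly below the RMG arrays, against 14.2% of all genes. For L_FMG against RMG it was 5 genes, all but Nfatc1, against 13% of all genes, and for BC against RMG 4 genes, Tm4sf19, Atp6v0d2, Ctsk and Dcstamp, against 11.1%. For SMG against RMG it was 1 gene, Nfatc1, against 4.6%, and the other 5 overlapped. Tm4sf19 averaged 7.97 ± 0.62 in H_FMG and 9.63 ± 0.31 in RMG. The macrophage markers moved the same way in each pair, with a mean of -0.90 in H_FMG minus RMG, -0.67 in L_FMG minus RMG, -0.29 in SMG minus RMG and -0.55 in BC minus RMG.

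Tm4sf19, Atp6v0d2 and Ctsk moved closely together from array to array. Over the 15 supplemented arrays, which took no part in the diet contrast, Tm4sf19 and Ctsk had a Pearson r of 0.982 and a Spearman rho of 0.975, Tm4sf19 and Atp6v0d2 0.980 and 0.968, and Atp6v0d2 and Ctsk 0.979 and 0.982. Each of these had a permutation p of 1e-05, the smallest that 100000 permutations can give, and 3.5e-05 after adjustment over 21 relations, for r and for rho. Without the 2 arrays farthest from the median, r was 0.977, 0.968 and 0.974 for these pairs.

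With the group means taken out, r within groups was 0.964 for Tm4sf19 and Ctsk, 0.974 for Tm4sf19 and Atp6v0d2 and 0.960 for Atp6v0d2 and Ctsk, each with an adjusted exact permutation p of 0.0018. The array-to-array differences inside a group were thus shared by the 3 genes. Dcstamp correlated with them at r between 0.803 and 0.853 over the 15 arrays (adjusted permutation p from 0.00021 to 0.000861), and at 0.599 to 0.672 within groups, where the adjusted exact permutation p was 0.333 in all 3 pairs. Within groups, Ocstamp reached r of 0.135 with Tm4sf19 and Nfatc1 0.223, and with each other they had -0.425 (adjusted exact permutation p = 0.774, 0.567 and 0.374).

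The macrophage markers moved with the same 3 genes. Over the 15 arrays the mean of the macrophage list had an r of 0.970 with Tm4sf19, 0.949 with Atp6v0d2 and 0.926 with Ctsk, with rho of 0.946, 0.904 and 0.914, and 0.973, 0.926 and 0.916 without the 2 farthest arrays. For r the adjusted permutation p was 3.5e-05 each. Within groups r was 0.931, 0.911 and 0.843, with adjusted exact permutation p of 0.00338, 0.00864 and 0.0284. Over the 15 arrays Dcstamp (r = 0.809) and Nfatc1 (0.656) passed too, with adjusted permutation p of 0.000735 and 0.0153, while Ocstamp at 0.449 had 0.104 for r and 0.0398 for rho. Within groups Dcstamp had 0.553, Nfatc1 0.438 and Ocstamp -0.044, and none of these passed (adjusted exact permutation p = 0.374, 0.333 and 0.901).

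**Figure D3:**
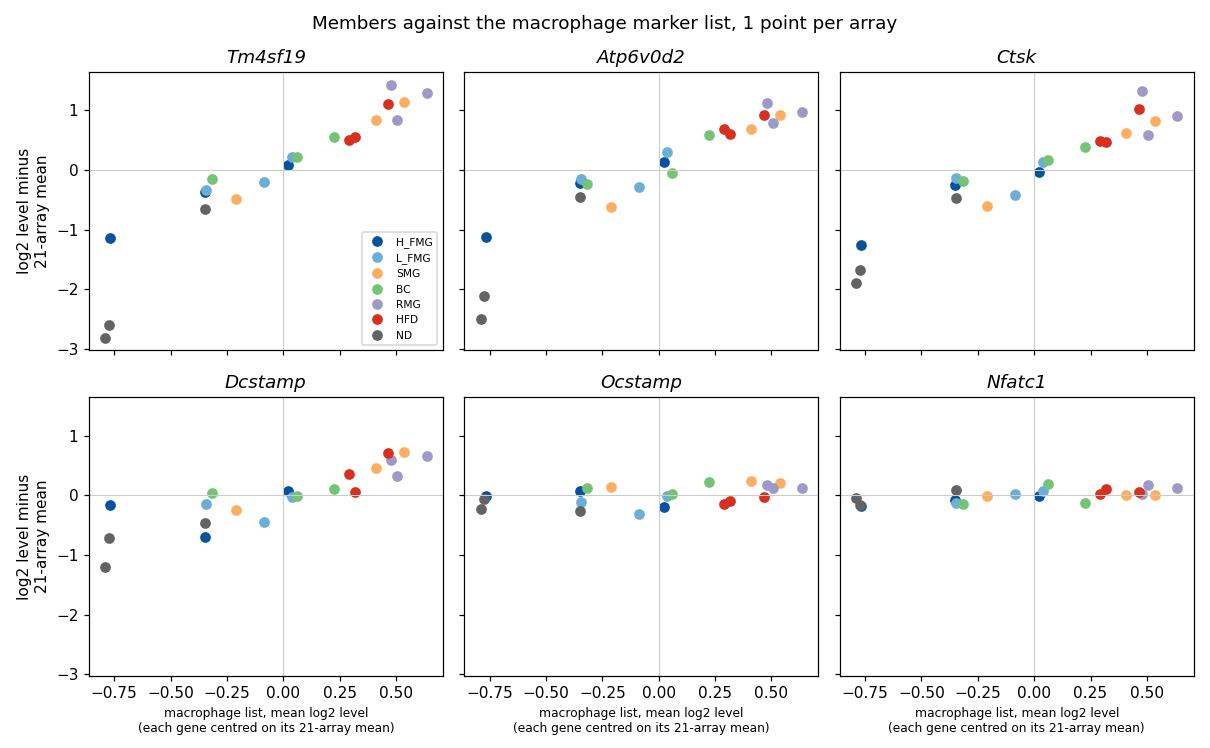
Level of each gene minus its mean over the 21 arrays (vertical axis, log2) against the mean of 15 macrophage markers centred the same way (horizontal axis, log2), 1 point per array, coloured by group. Tm4sf19, Atp6v0d2 and Ctsk rise steeply with the markers (r = 0.970, 0.949 and 0.926 over the 15 supplemented arrays), Dcstamp more loosely (0.809), and Ocstamp and Nfatc1 stay nearly flat.

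As a list, the macrophage markers were higher in HFD than in ND: 12 of 15 measured members rose and 0 fell by limma with Benjamini-Hochberg adjustment, against 6.54% of all genes higher. Without array HFD 6 the count was 7. The mean of the list was -0.36 ± 0.39 in H_FMG, -0.13 ± 0.20 in L_FMG, 0.25 ± 0.40 in SMG, -0.01 ± 0.28 in BC, 0.54 ± 0.08 in RMG, 0.36 ± 0.09 in HFD and -0.64 ± 0.25 in ND (SD over 3 arrays). To set the genes against this, the list's mean was subtracted from each gene in each array, both centred. Tm4sf19 then stood at 0.36 ± 0.24 in HFD and -1.39 ± 0.94 in ND, Atp6v0d2 at 0.38 ± 0.08 and -1.05 ± 0.84, and Ctsk at 0.30 ± 0.22 and -0.71 ± 0.53, each with every HFD array above every ND array. These 3 genes differed between the diets by more log2 units than the markers' mean did. They were proposed with this contrast known, so nothing is read from that. Single markers of the list differed by between -0.24 ± 0.15 (Cd163) and 1.99 ± 0.31 (Fcgr1).

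Dcstamp followed the markers more nearly, at 0.02 ± 0.25 in HFD and -0.16 ± 0.23 in ND after subtraction, with overlap. Ocstamp (-0.45 ± 0.04 in HFD and 0.45 ± 0.33 in ND) and Nfatc1 (-0.30 ± 0.10 and 0.59 ± 0.16) lay below in HFD on this scale. The list's mean itself was 1.00 higher in HFD than in ND, so a gene level between the diets must come out lower in HFD. In H_FMG and L_FMG the subtracted Tm4sf19 was -0.11 ± 0.23 and 0.03 ± 0.15, below its HFD value by less than the levels were. A gene with a wider range than the average marker keeps a difference under this subtraction.

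**Figure D4:**
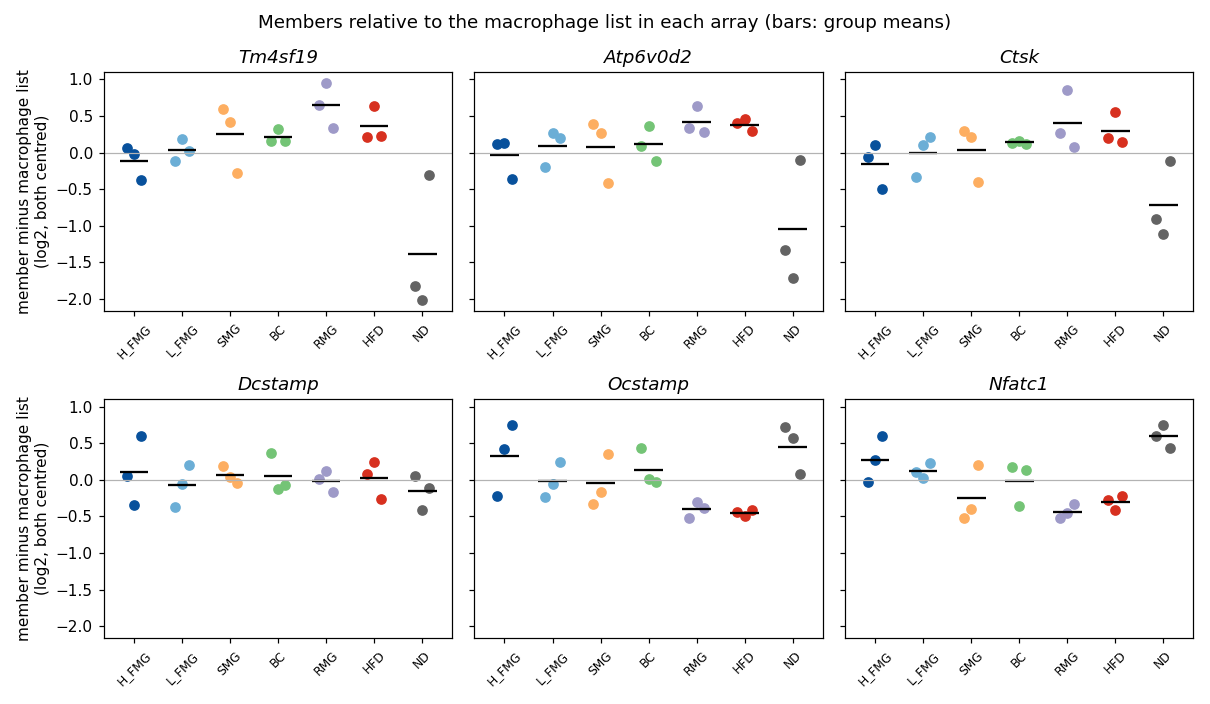
Each gene minus the mean of the macrophage list in the same array (vertical axis, log2, both centred on their 21-array means) by group (horizontal axis), 1 point per array with the group mean as a bar. Tm4sf19, Atp6v0d2 and Ctsk remain above 0 in HFD (0.36, 0.38 and 0.30) and below it in ND (-1.39, -1.05 and -0.71), and Dcstamp lies near 0 in both. Ocstamp and Nfatc1 take the opposite sign, which follows from subtracting a list that rose from genes that hardly differed.

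The genes with the most similar profile over the 21 arrays were chosen by Pearson correlation, leaving out predicted gene models. For Tm4sf19 these were Cd68 (r = 0.990), a lysosomal glycoprotein of macrophages, Lgals3 (0.990), a galectin, Dhrs9 (0.989), a retinol dehydrogenase, Trem2 (0.988), a lipid-sensing receptor, and Ccl9 (0.988), a chemokine. For Atp6v0d2 they were Cd68 (0.996), Trem2 (0.994), Dhrs9 (0.992), Lipa (0.990), the lysosomal acid lipase, and Rgs1 (0.990), which damps chemokine receptor signals in leukocytes. For Ctsk they were Spi1 (0.987), the myeloid transcription factor PU.1, Niban2 (0.985), Cyth4 (0.984), Cd180 (0.984), a receptor of antigen-presenting cells, and Ccl9 (0.984). Over the 15 supplemented arrays alone these 15 correlations lay between 0.967 and 0.997.

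Dcstamp was most like Ostf1 (0.945), an osteoclast-stimulating factor, Igf2r (0.934), the receptor that carries enzymes to lysosomes, Fnip2 (0.932), Gusb (0.932), the lysosomal beta-glucuronidase, and Fblim1 (0.931). Ocstamp had no close partner, with Fibp (0.761) and Flcn (0.729) first, followed by Hrob, Aldh1l2 and Tepsin at 0.726, 0.722 and 0.707. Nfatc1 was closest to Nfxl1 (0.904), with Spc25, Sf3a2, Uxs1 and Aif1 between 0.753 and 0.766. These are descriptions over arrays that share diet groups, chosen as the highest of all measured genes.

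In the wider osteoclast pathway, receptors and resorption genes were among those that rose in HFD fat. Over 4 lists of signal inputs, transcription regulators, fusion and adhesion genes, and acid and matrix resorption genes, 20 of 48 measured genes rose and 1 fell in HFD against ND by limma at an adjusted p of 0.05, which is 41.7% higher, against 6.54% of all genes higher and 2.09% lower. The median difference of the 48 was 0.31 log2 units, and that of all genes -0.04. Without array HFD 6 the count was 10 higher and 0 lower, while all genes called higher fell to 320, against 1063 with it. Macrophages, 12 of whose 15 markers rose, carry many of the same transcripts, and the part of their number in these counts was not tested.

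Among the signal inputs, 6 of 10 measured genes rose and 0 fell, and 3 rose without any 1 of ND 6, ND 8 or HFD 6. Tnfrsf11a, which encodes RANK, stood at 6.79, 6.15 and 5.95 in H_FMG, 6.68, 6.85 and 6.24 in L_FMG, 7.01, 7.44 and 6.97 in HFD and 5.74, 5.58 and 6.88 in ND. It rose by 1.07 ± 0.29 in HFD (limma adjusted p = 0.0236), but in 5 of 8 other settings it did not pass, with adjusted p up to 0.126, the last without HFD 6. The probe of its ligand RANKL, Tnfsf11, lay between 2.41 and 3.38 in all 21 arrays, below the limit of 4.30 for dim genes, so no difference is given for it. Tnfrsf11b, the decoy receptor that binds RANKL, differed by 0.36 ± 0.19 (limma adjusted p = 0.255) and did not pass. Csf1r, the receptor of M-CSF, rose by 0.93 ± 0.19 (0.00601), while its ligand Csf1 was at 0.16 ± 0.10 (0.345).

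The co-stimulatory receptor gene Trem2 rose as well, by 2.08 ± 0.42, and the adaptor Fcer1g, which carries activating motifs, by 1.25 ± 0.21. Oscar and Tyrobp of the same list were not measured. The kinases Syk and Tec, which act below such adaptors, rose by 0.75 ± 0.21 and 0.64 ± 0.20, though Syk passed in 2 and Tec in 1 of 8 other settings. Traf6, the adaptor of RANK, was at 0.07 ± 0.13 and did not pass.

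Of the 14 measured transcription regulators 3 rose and 0 fell. These were Fos, the AP-1 subunit needed for osteoclast formation, by 1.45 ± 0.32, Spi1 by 1.21 ± 0.24 and Mitf, a regulator of lysosomal and osteoclast genes, by 0.98 ± 0.20. The other 11, which did not pass, included Jdp2 (-0.13 ± 0.11), an AP-1 family member, Rela (0.17 ± 0.09) and Nfkb2 (0.16 ± 0.10), subunits of NF-kappa-B, and Prdm1 (0.27 ± 0.17), a repressor of osteoclast inhibitors. Fos lost its call without HFD 6 (limma adjusted p = 0.0517), and Spi1 and Mitf passed in every one of the 8 settings.

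Of the 12 measured fusion and adhesion genes 4 rose and 1 fell. Cd44, a hyaluronan receptor, rose by 1.49 ± 0.29, Sirpa, a receptor that takes part in macrophage fusion, by 1.03 ± 0.21, Pstpip2, a membrane-bending adaptor, by 0.76 ± 0.15 and Itgav, the alpha-v integrin, by 0.74 ± 0.16. Itgb3, which pairs with alpha-v in the osteoclast's integrin, was at 0.17 ± 0.13 (limma adjusted p = 0.431) and did not pass. Src, the kinase required for the ruffled border through which osteoclasts resorb, fell by 0.35 ± 0.10 (limma adjusted p = 0.0361), and passed in 3 of 8 other settings.

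Of the 12 measured resorption genes 7 rose and 0 fell. Tcirg1, the a3 subunit of the proton pump, stood at 7.57, 7.36 and 7.07 in H_FMG, 7.55, 7.78 and 7.50 in L_FMG, 7.87, 8.13 and 7.66 in HFD and 6.41, 6.38 and 7.22 in ND. It rose by 1.22 ± 0.23 in HFD (limma adjusted p = 0.00454). Clcn7, the chloride-proton exchanger that works with the pump, rose by 0.82 ± 0.17, its partner Ostm1 by 0.50 ± 0.11 and Plekhm1, a lysosome trafficking adaptor, by 0.57 ± 0.15. Mmp14, a membrane-bound matrix protease, rose by 0.98 ± 0.16, Ckb, a creatine kinase, by 0.99 ± 0.26 and Anxa8, an annexin, by 0.77 ± 0.21.

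The secreted protease gene Mmp9 was at -0.42 ± 0.19 (limma adjusted p = 0.165), the carbonic anhydrase gene Car2 at 0.07 ± 0.37 and Siglec15, a sialic acid receptor of osteoclasts, at 0.24 ± 0.15, and none of these 3 passed. Of the 7 that rose, Tcirg1 and Mmp14 passed in all 8 other settings. Without HFD 6 the list had 2 higher.

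Compared with HFD, none of these pathway genes passed the threshold in any supplemented group. In each supplemented group against HFD, 0 of the 48 genes passed, and among all genes limma called 1 in H_FMG (0.00615% of genes) and 0 in the other 4 comparisons, with 2350 genes at an unadjusted p below 0.05 in H_FMG, 1407 in L_FMG, 841 in BC, 458 in RMG and 300 in SMG. Tnfrsf11a differed from HFD by -0.84 ± 0.29 in H_FMG (limma adjusted p = 0.185), -0.55 ± 0.29 in L_FMG (0.592), -0.17 ± 0.29 in SMG, -0.40 ± 0.29 in BC and 0.36 ± 0.29 in RMG. Its arrays lay wholly below HFD in H_FMG, L_FMG and BC. Over the 5 supplemented groups the moderated F test called Mmp14 (limma adjusted p = 0.0419) among the 48. Mmp14 averaged 8.16 ± 0.35 in H_FMG, 8.62 ± 0.04 in L_FMG, 8.88 ± 0.35 in SMG, 8.55 ± 0.19 in BC and 9.14 ± 0.13 in RMG, and its call was lost without each array that brought the count of that test to 0. The fibroblast collagen genes Col1a1 (limma adjusted p = 0.0419) and Col1a2 (0.0356) passed the same test, with means of 8.92 ± 0.28 and 8.85 ± 0.21 in H_FMG, the lowest of the 5 groups, and 9.94 ± 0.08 and 9.77 ± 0.05 in RMG, the highest. Mmp14 was likewise lowest in H_FMG and highest in RMG, and the part of fibroblasts in its difference was not tested.

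The partners of Atp6v0d2 in the proton pump moved less than it did. Apart from Tcirg1, counted above with the resorption genes, 16 other V-ATPase subunits were measured. Of these 5 rose in HFD against ND and 0 fell: Atp6v1a by 1.01 ± 0.19, Atp6v1c1 by 0.84 ± 0.18, Atp6v0a1 by 0.80 ± 0.17, Atp6v1d by 0.70 ± 0.13 and Atp6v1h by 0.29 ± 0.09. The median of the 16 was 0.15, and their differences ran from -0.41 to 1.01. These, and the 1.22 of Tcirg1, were all below the 2.43 of Atp6v0d2. Other cathepsin genes, papain-like or not, behaved likewise. Of 10 measured beside Ctsk 5 were higher and 0 lower: Ctss by 1.11 ± 0.26, Ctsa by 0.85 ± 0.15, Ctsl by 0.68 ± 0.13, Ctsz by 0.66 ± 0.18 and Ctsb by 0.42 ± 0.12. Without HFD 6 the V-ATPase count was 3, and the cathepsin count was 2 without HFD 6 or ND 8 and 3 without HFD 4. The median of the 10 cathepsins was 0.33, and all 10 were below the 2.01 of Ctsk. In neither list did the difference between the member and the other genes receive a test. Atp6v0d2 and Ctsk were proposed with this contrast known, so nothing is read from their larger differences. Atp6v0d1 was among the subunits not measured.

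Other cell types of the pad moved in the same comparisons. Of 8 measured markers of lipid-associated macrophages 7 rose in HFD and 0 fell, among them Gpnmb by 2.23 ± 0.44 and Lipa by 1.23 ± 0.23, and of 7 fibroblast markers 4 rose, though without HFD 6 it was 1. Endothelial markers went the other way: of 5 measured 0 rose and 1 fell, Vwf, the von Willebrand factor gene, by 0.71 ± 0.12 (limma adjusted p = 0.00309), with Pecam1 at -0.35 ± 0.11, Kdr at -0.49 ± 0.19, Emcn at -0.33 ± 0.12 and Tek at -0.23 ± 0.15. Of 3 measured adipocyte markers 0 passed, with Adipoq at -0.33 ± 0.17 and Fabp4 at -0.10 ± 0.10, and the labelled tissue was evident in Fabp4 at 12.1 in HFD and 12.2 in ND. Of 5 measured osteoblast and bone markers 0 rose and 1 fell, Bglap, by 0.68 ± 0.19, whose near-identical copies its probe may also read, and which passed in 3 of 8 other settings. The part of these cell types in the differences of the 6 genes was not tested.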

How the data were processed

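The deposited series table held log2 levels, 1 per probe and array, as the authors left them. Trizol RNA was labelled as sense cDNA for GeneChip whole-transcript arrays, per the labels' protocols. Neither summarisation nor normalization is stated in them, and the log base was taken from the values (0.84 to 12.7). Part of the table was held, and nearly all genes on chromosomes 7, 8, 9 and X, with some of 6, were not analysed here. Of 24291 complete probes 17067 had 1 gene symbol in the platform annotation, and the brightest stood for each of 16248 genes.

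A model in limma 3.58.1 (R 4.3.3) had 1 coefficient per group over 21 arrays with an intensity trend. Two-sided p-values were corrected over all genes by the Benjamini-Hochberg method. The fit was tested on simulated data. The members, gene lists (151 of 208 genes measured), tests and alternatives were chosen with earlier results of these data known, and lists are counted, not tested. Named genes are the 6 members, the 5 most correlated genes of each and list genes by their role. Fitted intervals are at 95%. The title numbers did not pair the arrays: of 18 same-number pairs 2 had a correlation of deviations over 0.1. No batch or scan date was given in the sources used here. Other settings were quantile normalization, median centring, a filter on dim genes, probe choice, the groups alone, no trend, array weights, a replicate block and leaving out each array. For list counts, the settings were added after seeing the data.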

Additional observations from a re-analysis of the deposited data

How the results depend on the processing

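Across the 5 supplemented groups the F test called 50 genes, and 77 after quantile normalization, 107 with dim genes left out, 7 with every probe tested, 1 with the groups compared alone, 4 with no intensity trend and 1672 with array weights. Leaving out 1 array gave 0 to 775. HFD against ND called 1403 genes, 774 with those arrays alone, 2432 with array weights and 368 to 1457 with 1 array left out. H_FMG against HFD called 1, 0 with every probe tested, 566 with array weights and 0 to 257 with 1 array left out, the highest without H_FMG 3. L_FMG against HFD called 0, 3 with the groups alone and 1 with array weights. With array weights L_FMG against SMG called 15, L_FMG against BC 1 and RMG against HFD 2, where each otherwise called 0. SMG against HFD called 0, and 0 to 1 with 1 array left out. With the replicate block, taking title numbers as a random block, 34 genes were called across the supplemented groups and 1415 in HFD against ND, and no call on the 6 genes changed. The consensus correlation was -0.09.

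Of the 6 genes in the 3 tested pairs, the sign turned in 10 cases, none of which passed. Nfatc1 in L_FMG against SMG was at 0.044 after quantile normalization, 0.018 with array weights and -0.050 to 0.043 with 1 array left out. With 1 array left out, L_FMG against BC ranged from -0.039 to 0.13 for Nfatc1 and from -0.32 to 0.10 for Atp6v0d2. H_FMG against L_FMG ranged from -0.22 to 0.17 for Dcstamp and from -0.63 to 0.0004 for Atp6v0d2. The cause was not tested. With 3 arrays per group, the number of arrays limits the precision.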

Other observations

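Some relatives of Nfatc1 were higher in HFD than in ND. Of 7 measured genes of the NFAT and calcineurin list 2 rose in HFD against ND and 0 fell by limma with Benjamini-Hochberg adjustment. Nfatc2, another NFAT factor, rose by 0.47 ± 0.11 (limma adjusted p = 0.0086) and Rcan1, a calcineurin regulator that NFAT itself induces, by 0.59 ± 0.13 (0.00841). The calcineurin catalytic genes Ppp3cc (0.34 ± 0.12), Ppp3cb (0.23 ± 0.11) and Ppp3ca (0.10 ± 0.08) did not pass, nor did Nfatc4 (-0.06 ± 0.14). Rcan1 passed in all 8 other settings, and Nfatc2 lost its call without HFD 6 (limma adjusted p = 0.0652). Without ND 6 the list's count was 4. The difference between Nfatc1 and these genes was not tested.

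None of the measured relatives of Tm4sf19 passed. Of 4 measured genes of the L6 tetraspan family 0 passed in HFD against ND, and 1 was lower without ND 9, with Tm4sf1 at -0.25 ± 0.20, Tm4sf5 at -0.21 ± 0.13, Tm4sf20 at -0.18 ± 0.15 and Tm4sf4 at 0.02 ± 0.24, beside 2.74 for Tm4sf19. The probes of Tm4sf20 and Tm4sf4 lay below the limit of 4.30 for dim genes in every group mean. Tm4sf19 was proposed with this contrast known, so nothing is read from its larger difference. Of 5 measured mast cell markers 2 rose, Cpa3 and Mcpt4, both mast cell proteases, with Cpa3 higher by 2.36 ± 0.62, and the count was 0 without any 1 of ND 9, HFD 6 or HFD 7, 1 without ND 8 and 4 without HFD 4. The other 3 were Tpsb2 (0.92 ± 0.32), Cma1 (0.68 ± 0.28) and Kit (-0.18 ± 0.16). Of 2 measured T lymphocyte markers Il7r, a cytokine receptor, rose by 2.59 ± 0.47, and Cd8a, whose probe was dim, was at -0.10 ± 0.21. Of 3 measured dendritic cell markers 0 passed.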
